A study of Drosophila melanogaster with 4 samples.

Results

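The DNA replication genes of Drosophila melanogaster were examined in ovary follicle cells. The list holds 37 genes, chosen by name for their part in origin licensing, fork progression, DNA synthesis and nucleotide supply, out of 15682 genes in the authors' deposited table. Of the 37, 36 had reads and a p-value, and lat, the third subunit of the origin recognition complex, was listed at 0. EGFR-activated cells expressed UAS-EGFR-lambdatop, a constitutively active version of the fly EGF receptor, together with UAS-CD8-GFP, a membrane-tethered fluorescent protein, and control cells expressed UAS-CD8-GFP only. Each group had 2 libraries, which the submitters call biological replicates. Flies of both groups were reared at 18 °C until adulthood and then kept at 29 °C, the adults being dissected after 7 to 10 days there. Neither the Gal4 driver of the transgenes nor the number of animals per library is given in the sources used here. Values per library were not used here, so every value is a mean over the 4 libraries or a comparison of the groups.

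Replication starts at origins, where the origin recognition complex, with Cdc6 and the product of double parked, loads the MCM helicase. CDC45 and the GINS complex then activate the helicase, and polymerases, a sliding clamp and its loader, single-strand binding proteins, a flap nuclease and a ligase copy the strands. The follicle epithelium uses this machinery in mitotic cycles early in oogenesis, in endocycles that raise ploidy without division, and last in local amplification of the chorion gene clusters. In a bulk sample, a change in the number of cells in one of these phases and a change of RNA per cell cannot be told apart.

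Replication genes were higher in EGFR-activated cells than in control cells in most cases. In the authors' deposited table, which gives DESeq2's adjusted p, 29 of the 36 measured rose at a threshold of 0.05, 0 fell and 7 missed it. For comparison, 18.0% of the 9409 genes with an adjusted p rose and 17.5% fell. Centred on the ribosomal protein genes instead, 1 member was higher and 5 were lower, as described after the roles. On that scale 1.01% of the 9409 genes were higher and 56.8% lower. On the deposited scale, at an unadjusted p under 0.05, 32 members were higher and 0 lower. The share of all genes at that unadjusted threshold is not given here. The log2 fold change, EGFR-activated over control, had a median of 0.95 over the 36, against 0.06 over all genes with an adjusted p. It ranged over the members between −0.21 in Orc1 and 1.43 in Psf1, so that the highest corresponds to a 2.69-fold difference. Standard errors of the members lay between 0.17 and 0.45, with a median of 0.25. The list was drawn up with earlier results of these data known, so these counts describe it and do not test it.

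**Figure D1:**
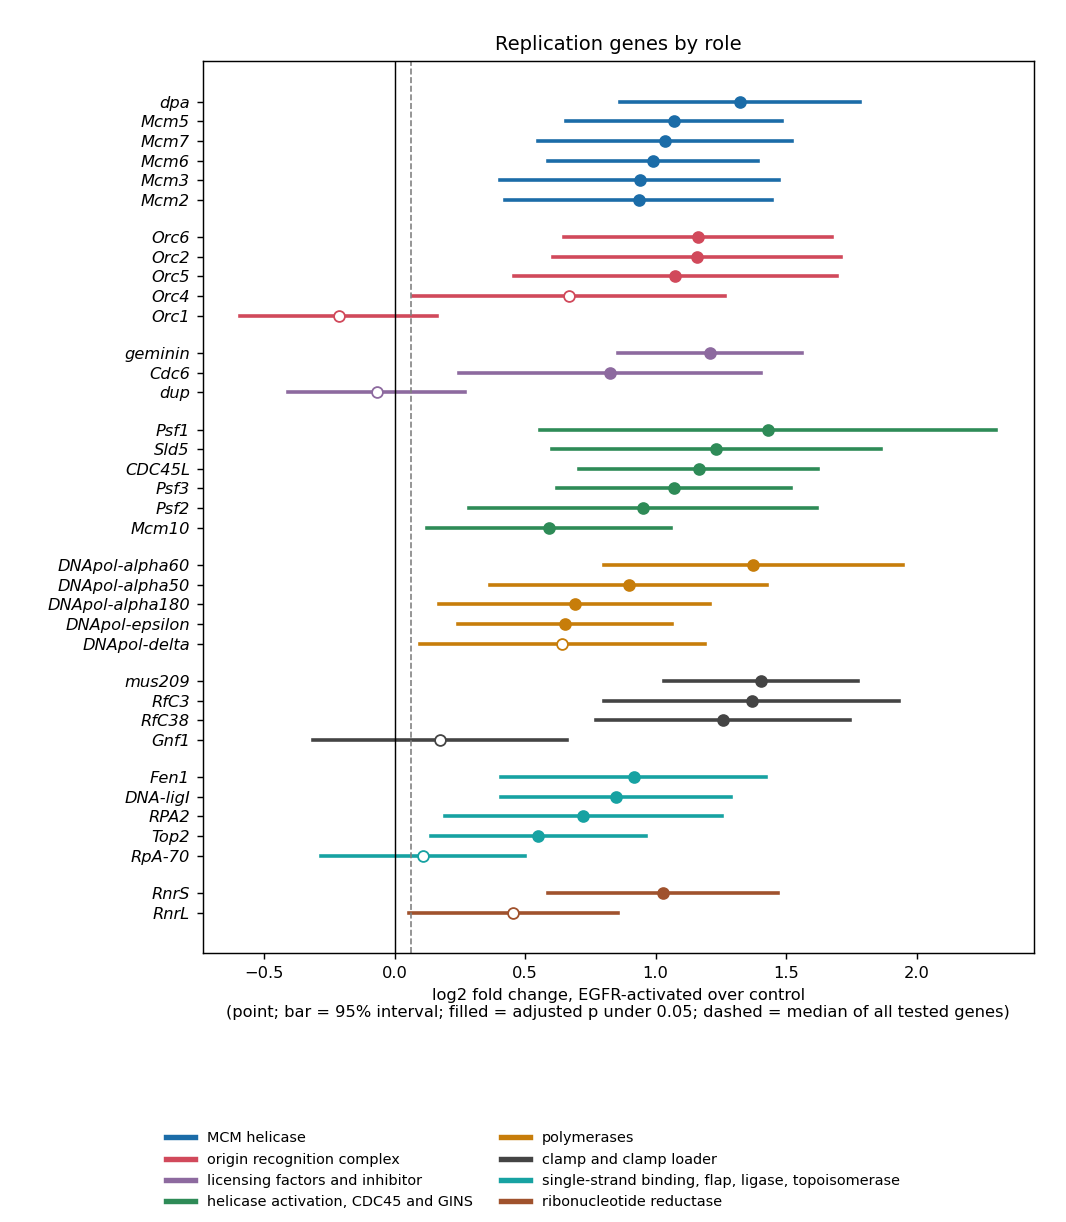
Log2 fold change, EGFR-activated over control, of the 36 measured replication genes, grouped by role; points are the deposited values, bars 95% intervals from the deposited standard errors, filled points have an adjusted p under 0.05, and the dashed line is the median of all genes with an adjusted p (0.06). On this deposited scale the 6 MCM subunits and the 6 genes of helicase activation are all filled, while Orc1, dup, Gnf1 and RpA-70 have intervals that include 0.

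Origin recognition was uneven. Of 5 measured subunits of the complex, 3 rose and 2 did not pass. Orc6 rose by 1.16 ± 0.26 (log2, SE) and Orc2 by 1.16 ± 0.28 in the authors' deposited table, with adjusted p of 9.53e-05 and 0.000313. Orc5 rose by 1.08 ± 0.32 (adjusted p = 0.00350). These 3 were therefore a little over doubled, at 2.24-fold, 2.23-fold and 2.11-fold. Orc4 was at 0.67 ± 0.31 and missed the threshold (adjusted p = 0.0740). Orc1, the large ATPase subunit whose protein level cycles with the cell cycle in flies, stood apart in sign, at −0.21 ± 0.19 in the deposited table (adjusted p = 0.412). On the deposited scale its 95% interval, −0.59 to 0.16, lay wholly below that of Orc6, 0.65 to 1.68. With the length trend described below removed, Orc1 was at −0.17 and Orc6 at 0.57, and intervals with the same standard errors overlap. The difference between the genes was not tested. The subunit gene lat, now named Orc3, had no reads assigned to it. In the BDGP6 annotation all 3315 of its exonic bases are shared, on the same strand, with CG34315, which was also listed at 0, so a value of 0 for lat does not show that it was not transcribed.

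The licensing factors split in the same manner. Cdc6, the ATPase that brings the helicase to the origin, rose by 0.83 ± 0.29 (adjusted p = 0.0184 in the authors' deposited table). The gene dup, which encodes the fly Cdt1 and is needed for chorion gene amplification, was at −0.07 ± 0.17 (adjusted p = 0.804). Its 95% interval, 0.754-fold to 1.21-fold, ended below the smallest fold of any MCM gene, 1.91 in Mcm2. Transcripts of geminin, which binds the product of dup and blocks relicensing, rose by 1.21 ± 0.18, a 2.31-fold difference (adjusted p = 6.75e-10). On the deposited scale the inhibitor was thus higher in EGFR-activated cells while its target did not pass the test. Centred on the ribosomal protein genes, geminin was at 0.28 and did not pass (adjusted p = 0.176). There dup was called lower, at −0.999, as were 56.8% of all 9409 genes with an adjusted p.

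All 6 subunits of the MCM helicase rose on the deposited scale, by similar amounts; centred on the ribosomal protein genes they lay between 0.00 and 0.39 and none passed. The gene disc proliferation abnormal (dpa), which encodes the fourth subunit, had the largest value of the 6, at 1.32 ± 0.23 in the authors' deposited table (2.50-fold, adjusted p = 3.66e-07). Mcm5 was at 1.07 ± 0.21, Mcm7 at 1.04 ± 0.25 and Mcm6 at 0.99 ± 0.20, with adjusted p of 5.54e-06, 0.000255 and 1.85e-05. Mcm3 and Mcm2 were both at 0.94, with standard errors of 0.27 and 0.26 (adjusted p = 0.00305 and 0.00196). The 95% intervals of the 6 overlapped in every pair, the lowest bound being 0.40 and the highest 1.78. Reads of Mcm7 need care: in the BDGP6 annotation 81.7% of its exonic bases overlap an antisense noncoding gene, asRNA:CR45871, and no source used here says whether counting used strand.

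On the deposited scale helicase activation followed the same course, with 6 of 6 genes higher. With the length trend described below removed, the calls of the 2 sets differed. Of the 5 activation genes with a corrected value only CDC45L and Psf3 still passed, whereas all 6 MCM genes did. The corrected medians were 0.57 for the activation genes and 0.95 for the MCM genes. Median standard errors were 0.28 and 0.24, in the same order. The difference between the sets was not tested. Measured against the ribosomal protein genes, 0 of the 6 activation genes passed in either direction. In the authors' deposited table CDC45L, which encodes CDC45, rose by 1.16 ± 0.23 (adjusted p = 8.51e-06). Of the 4 GINS subunits, Psf1 had the largest fold change of all members and the widest error, at 1.43 ± 0.45 (adjusted p = 0.00623). It was also the least abundant member, with a mean normalised count of 41.7. Sld5 rose by 1.23 ± 0.32, Psf3 by 1.07 ± 0.23 and Psf2 by 0.95 ± 0.34 (adjusted p = 0.000898, 3.17e-05 and 0.0186). The 4 GINS intervals overlapped. Mcm10, a scaffold between the helicase and polymerase alpha, had the smallest rise in this set, 0.59 ± 0.24, and passed narrowly (adjusted p = 0.0396). Without a filter on low values Mcm10 no longer passed, and 28 members were higher, against 12.4% of 12650 genes.

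Among the polymerase genes, 4 of 5 rose. Polymerase alpha and its primase start each new strand. In the authors' deposited table the primase subunits DNApol-alpha60 and DNApol-alpha50 rose by 1.37 ± 0.29 and 0.90 ± 0.27 (adjusted p = 3.11e-05 and 0.00449), and the catalytic subunit gene DNApol-alpha180 by 0.69 ± 0.26 (adjusted p = 0.0293). The leading-strand polymerase gene DNApol-epsilon was at 0.65 ± 0.21 and passed (adjusted p = 0.00762). DNApol-delta, the catalytic subunit of the lagging-strand polymerase, was at 0.64 ± 0.28 and just missed the threshold (adjusted p = 0.0583). The values of DNApol-epsilon and DNApol-delta differed by far less than either standard error, and only the error put them on different sides of the threshold.

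The sliding clamp gene mus209, which encodes PCNA, had the smallest adjusted p of all members, at 1.40 ± 0.19 in the authors' deposited table (2.64-fold, 95% interval 2.04 to 3.42, adjusted p = 9.14e-12). The clamp loader subunits RfC3 and RfC38 rose by 1.37 ± 0.29 and 1.26 ± 0.25 (adjusted p = 2.74e-05 and 6.64e-06). The large subunit gene of the same loader, Gnf1, did not pass, at 0.17 ± 0.25 (adjusted p = 0.630). On the deposited scale its 95% interval ended at 0.66, below the lower bounds of RfC3 (0.80) and RfC38 (0.77). With the length trend described below removed, Gnf1 was at 0.25, RfC3 at 0.87 and RfC38 at 0.96. Intervals drawn there with the same standard errors overlap, and the difference was not tested. RfC38 shares 25.2% of its exonic bases with the opposite-strand gene Nup160, which itself rose (0.74, adjusted p = 0.00136 in the deposited table).

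Of 5 genes that protect, finish and untangle the new strands, 4 rose. Fen1, the flap nuclease that trims Okazaki fragments, rose by 0.92 ± 0.26 (adjusted p = 0.00223), and DNA-ligI, which joins them, rose by 0.85 ± 0.22 (0.00108), both from the authors' deposited table. RPA2, the middle subunit of the single-strand binding protein, rose by 0.72 ± 0.27 (adjusted p = 0.0255). Its partner RpA-70, the large subunit, was at 0.11 ± 0.20 (adjusted p = 0.716). Top2, the topoisomerase that untangles the daughter duplexes, rose by 0.55 ± 0.21 (adjusted p = 0.0290).

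Ribonucleotide reductase makes the deoxynucleotides for synthesis. In the authors' deposited table its small subunit gene RnrS rose by 1.03 ± 0.22 (2.04-fold, adjusted p = 5.20e-05), and the large subunit gene RnrL was at 0.45 ± 0.20, short of the threshold (adjusted p = 0.0682). The difference between the subunits was not tested.

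The level of the members, as opposed to their fold change, spread widely. The mean normalised count per kilobase of exon ranged between 60.2 in Psf1 and 2774 in RnrS over the 35 measured members with a known length. Subunits of one complex were not at one level. Per kilobase, Gnf1 was at 1061 while its loader partners RfC38 and RfC3 were at 188 and 155, and RnrS was at 2774 against 780 for RnrL. The MCM subunits lay closer together, between 170 in Mcm3 and 544 in Mcm7. In origin recognition, Orc6 and Orc1 were at 400 and 384 per kilobase, and Orc4, Orc5 and Orc2 at 142, 118 and 96.0. The relicensing inhibitor geminin, at 1557, was above its target dup, at 617, and above Cdc6, at 178. These are means over both groups of libraries, with no spread between libraries available here.

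**Figure D2:**
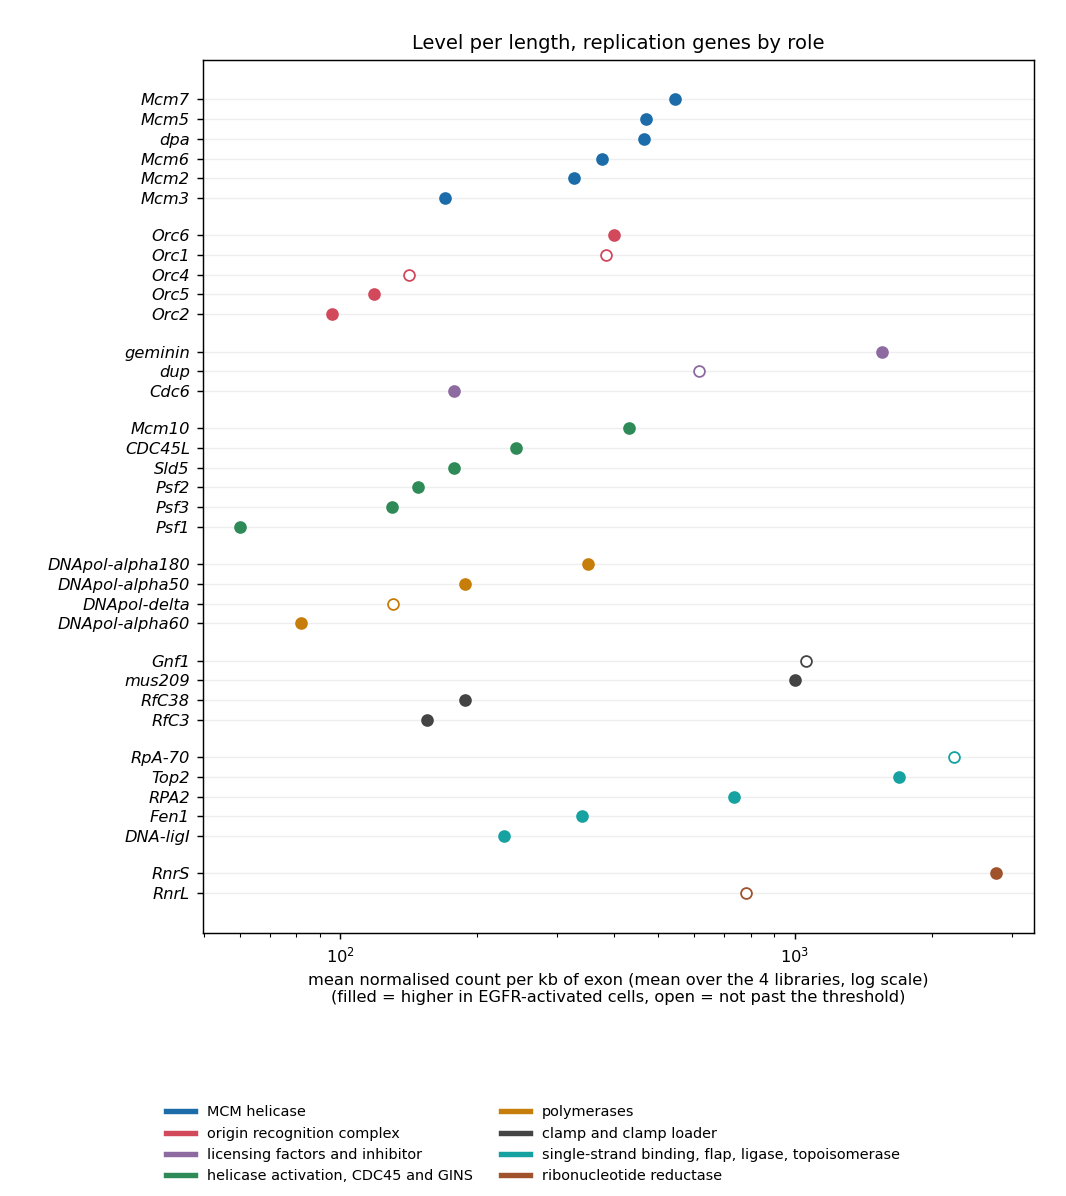
Mean normalised count per kilobase of exon (log axis, mean over the 4 libraries of both groups) for the 35 measured replication genes with a known length, grouped by role; filled points were higher in EGFR-activated cells and open points did not pass the test. Open points mark the most abundant loader and single-strand binding subunits, Gnf1 at 1061 and RpA-70 at 2245.

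The members were also split by mean count, with no test of the difference between the classes. Of the 8 whose mean normalised count reached 1500, 4 rose, with a median log2 fold change of 0.50, against 11 of 12 with a mean of 500 to 1500 (median 0.96) and 13 of 15 with a mean of 50 to 500 (median 1.07). All tested genes in these ranges had medians of −0.16, 0.16 and 0.26, and 16.4%, 25.8% and 21.6% of them were higher. Across the 36 members the fold change and the log2 mean count had a Pearson r of −0.55 and a Spearman rho of −0.52, which were −0.20 and −0.19 over 34 members once the length trend described next was removed. Across 35 members with a known length, the fold change and the log2 exonic length had an r of −0.54 and a rho of −0.59. The points share the same 4 libraries and are genes, not replicates, so these are descriptions.

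**Figure D3:**
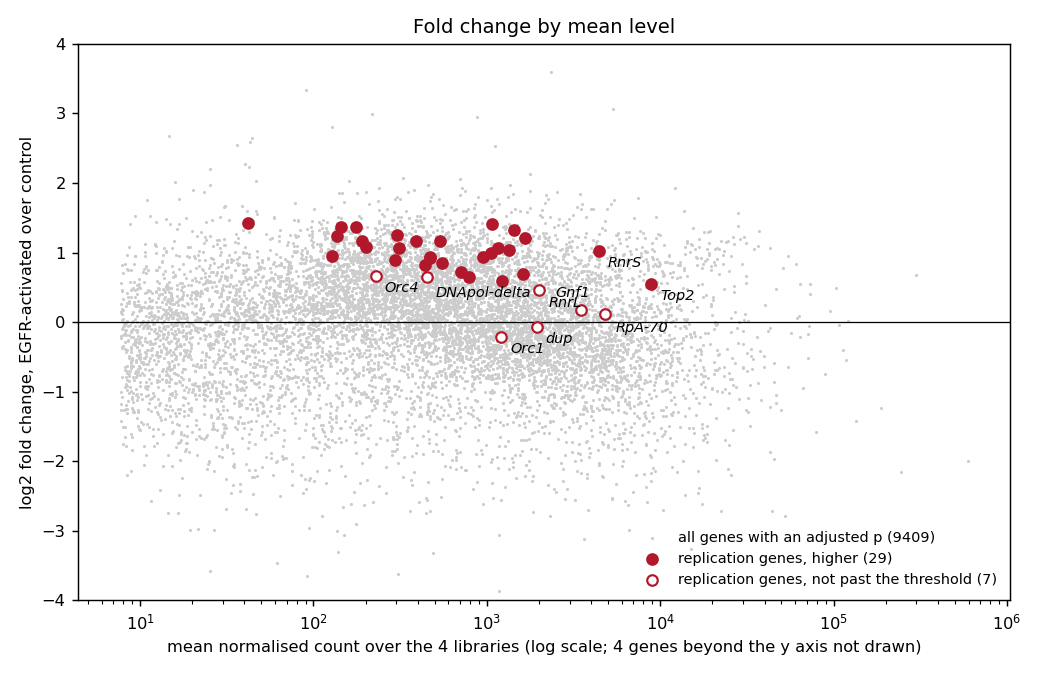
Mean normalised count over the 4 libraries (log axis) against log2 fold change, EGFR-activated over control, for all 9409 genes with an adjusted p (grey) and the replication genes (29 filled, higher; 7 open, not past the threshold); 4 genes beyond the vertical axis are not drawn. RnrS and Top2 have the largest means among the members that rose on this deposited scale, 4419 and 8871.

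Short genes were higher than long genes in these libraries, and several replication genes are short. Over the 7824 genes of known exonic length whose mean reached 50, the fold change and the log2 length had an r of −0.39. A smooth trend on length was therefore removed. Of the 34 members that could be corrected, 21 were then higher and 0 lower, against 11.4% higher and 16.9% lower among the 7824 genes. The median of the 34 was 0.74, against 0.95 before the removal. The removal also shifted the 7824 genes as a whole, whose median was −0.0016 after it and 0.11 before. All 6 MCM genes still passed, with dpa at 1.35 and the other 5 between 0.90 and 0.97, as did CDC45L (1.02), mus209 (0.87), geminin (0.67), RnrS (0.73) and both small loader subunits.

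The calls of 7 members ended on that removal. These were Orc6 at 0.57 (adjusted p = 0.0874), Sld5 at 0.54 (adjusted p = 0.216), Psf2 at 0.31 (adjusted p = 0.550), DNApol-alpha50 at 0.59 (adjusted p = 0.0896), Fen1 at 0.53 (adjusted p = 0.113), RPA2 at 0.13 (adjusted p = 0.776) and Mcm10 at 0.57 (adjusted p = 0.0595). RPA2, with an exonic length of 963 bp, kept the least of its rise. Long members moved up: DNApol-alpha180, at 4624 bp, was at 0.95 (adjusted p = 0.00228), Top2, at 5242 bp, at 0.87 (adjusted p = 0.000375), and DNApol-delta passed, at 0.74 (adjusted p = 0.0314). The values of Orc1, dup, Gnf1 and RpA-70 after the removal were −0.17, −0.03, 0.25 and −0.04, none past the threshold. Psf1 was too low and DNApol-epsilon had no matched length, so neither has a corrected value. After the removal the members' fold change and log2 length had an r of 0.14.

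**Figure D4:**
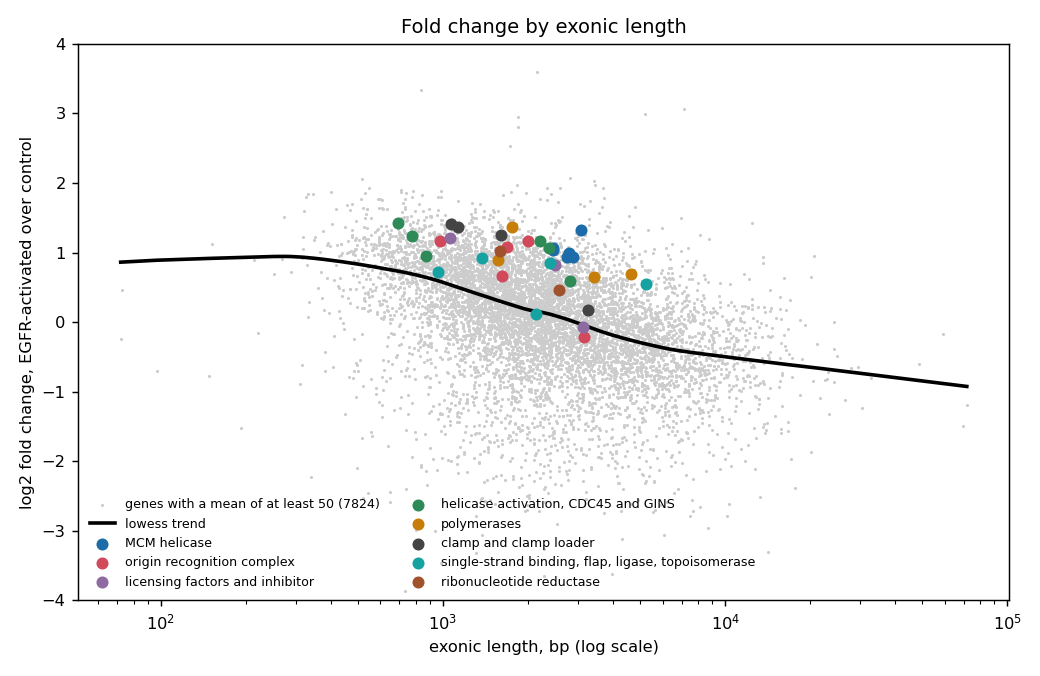
Exonic length (log axis) against log2 fold change, EGFR-activated over control, for 7824 genes with a mean of at least 50 (grey), their lowess trend (black line) and the replication genes, coloured by role. The trend falls with length; the MCM genes, between 2451 and 3071 bp, lie well above it, and RPA2, at 963 bp, lies close to it.

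The size of the change also depended on what was held constant. Ribosomal protein genes, which are transcribed in every cell and are short, had a median of 0.93 over 84 genes, against 0.95 for the replication genes; after removal of the length trend their median was 0.34, with 8 of 81 higher, against 0.74 for the replication genes. Centred on them, all genes moved down by that amount, and 1 member was higher, mus209 at 0.47 (adjusted p = 0.0242). In the same fit 5 were lower, Orc1 at −1.15, dup at −0.999, RpA-70 at −0.82, Gnf1 at −0.76 and RnrL at −0.48. Among all 9409 genes 1.01% were higher and 56.8% lower on this scale. The median of the members was 0.01 and that of the 9409 genes with an adjusted p −0.87. The deposited values were also centred on 0.01, their median over the 12650 genes with a p-value. There 29 members were higher, with 17.7% of the 9409 genes higher.

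**Figure D5:**
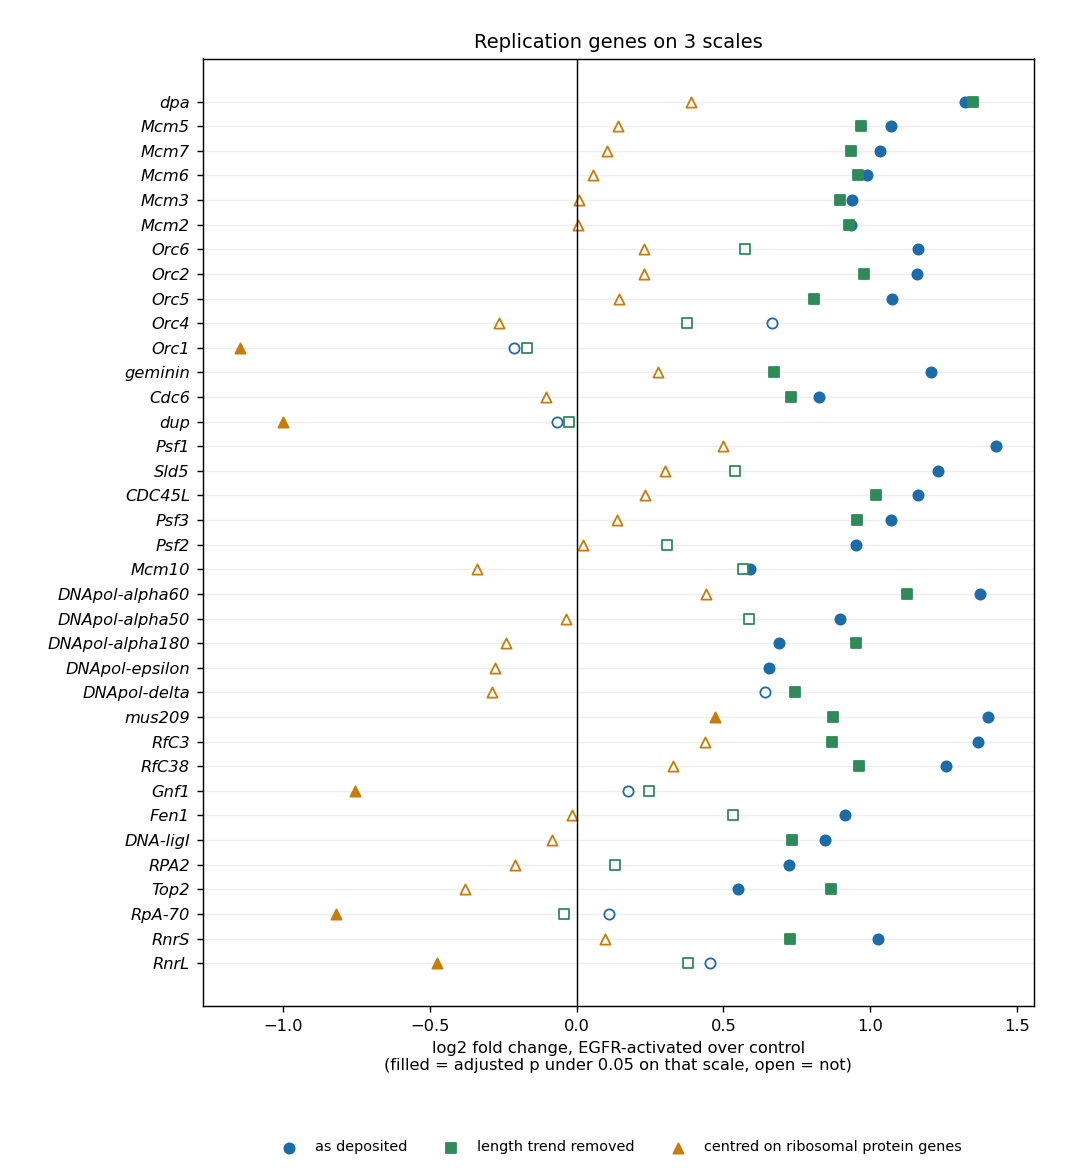
Log2 fold change, EGFR-activated over control, of the 36 measured replication genes on 3 scales: as deposited (circles), after removal of the length trend (squares; 34 genes) and centred on the ribosomal protein genes (triangles); filled symbols have an adjusted p under 0.05 on that scale. Of the members, mus209 alone is filled as higher on every scale; Orc1, dup and RpA-70 are the 3 lowest on each, and Orc1, dup, RpA-70, Gnf1 and RnrL are filled as lower when centred on the ribosomal protein genes.

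Regulators of S phase entry were examined from their own list. Of 27 measured regulators 10 rose and 0 fell, with a median log2 fold change of 0.29, in the authors' deposited table. Among all genes with an adjusted p, 18.0% rose and 17.5% fell. The activator gene E2f, whose product drives transcription of replication genes in flies, was at −0.30 ± 0.29, its partner Dp at 0.08 ± 0.21 and the retinoblastoma family gene Rbf at 0.16 ± 0.20, none past the threshold. The repressor gene E2f2 rose by 0.63 ± 0.26 (adjusted p = 0.0434), and missed the threshold once length was corrected for (adjusted p = 0.193). The S phase cyclin gene CycE rose by 0.86 ± 0.27 and its kinase gene cdc2c, the fly Cdk2, by 1.06 ± 0.19 (adjusted p = 0.00621 and 1.04e-06), and both also passed with length corrected for. The inhibitor of that kinase, dap, was at 0.25 ± 0.23. Of the others, the mitotic kinase gene cdc2 rose by 1.43 ± 0.24, Cdk4 by 1.10 ± 0.28 and lin-52 of the Myb-MuvB complex by 0.93 ± 0.21.

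Dref encodes a factor that binds an element found upstream of many fly replication genes. Dref, in the authors' deposited table, rose by 0.57 ± 0.18 (adjusted p = 0.00657). In the authors' second deposited table, which sets DESeq2 beside Cuffdiff for 40 transcription factors, Dref had a log2 fold change of 0.59 from Cuffdiff, with an adjusted p of 0.629. The tools gave nearly the same size and differed in the call.

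Partners of the fork and of amplification outside the list were examined from their own list. Of 25 measured partners 11 rose and 1 fell, with a median of 0.51, in the authors' deposited table. The loader subunit gene RfC4 rose by 0.81 ± 0.18 and CG8142, a loader subunit homologue, by 1.05 ± 0.23; with length corrected for, RfC4 was at 0.31 and no longer passed (adjusted p = 0.210), while CG8142 still did. Chrac-16, a histone-fold protein gene, rose by 1.46 ± 0.28, and san, an acetyltransferase gene of sister chromatid cohesion, by 1.27 ± 0.23. The gene that fell was chif, which encodes the fly Dbf4 and is needed for chorion amplification, at −0.87 ± 0.25 (adjusted p = 0.00250). With length corrected for, chif was at −0.43 and no longer passed (adjusted p = 0.200). Another amplification gene, hd, named after its value was seen, rose by 0.82 ± 0.28 (adjusted p = 0.0141, and 0.0540 with length corrected for).

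Nucleotide supply outside the reductase was examined from its own list. Of 14 measured genes 8 rose and 0 fell, with a median of 0.67, in the authors' deposited table. For comparison, 18.0% of all genes with an adjusted p rose and 17.5% fell. The lowest of the 14, su(r), was at −0.80 and did not pass (adjusted p = 0.133). The deoxynucleoside kinase gene dnk rose by 1.60 ± 0.22, a 3.02-fold difference (adjusted p = 1.22e-11), and dUTPase, which removes dUTP, by 1.70 ± 0.30 (adjusted p = 2.69e-07). Both kept passing with length corrected for and when centred on the ribosomal protein genes. CTPsyn rose by 0.92 ± 0.21 and the thymidylate synthase gene Ts by 0.93 ± 0.25, though Ts missed the threshold with length corrected for (adjusted p = 0.102).

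Facts of the libraries bear on these values. As a check of the labels in the authors' deposited table, Egfr, the transgene's own gene, rose by 1.50 ± 0.35 (adjusted p = 0.000177), with reads of the transgene and of the endogenous gene not told apart. The follicle cell marker tj was abundant, with a mean of 10707, and rose by 0.87 ± 0.24 (adjusted p = 0.00216); of 14 follicle cell markers 2 rose and 1 fell (Cad74A, −2.40), 5 lay above 0, and the median was −0.23. Germ line cells also replicate their DNA, and their markers were present. Of 19 germ line markers 3 rose, 2 fell and 14 did not pass (median 0.22), and vas was at −0.05 ± 0.48. These counts are near the shares over all genes with an adjusted p, 18.0% higher and 17.5% lower. The largest means in the germ line sum of 44598 were those of tud (11759, called lower) and me31B (8545, called higher). The median standard error was 0.43 for germ line markers and 0.25 for replication genes. Of 17 muscle sheath markers 13 fell and 0 rose (median −1.48). Their summed mean of 55876 was mostly Tm1 (29906, log2 fold change −0.13, not past) and Msp-300 (18515, −1.49, called lower), while Mhc was at 283. Of 6 measured fat body markers 2 had an adjusted p, and Lsp2 fell. The sum of the 6, 5953, was almost all Lsp2 (5848), and Fbp1 was listed at 0. Summed levels by group are not analysed here, and the part of other cell types in the change of the replication genes was not tested.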

How the data were processed

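RNA of ovary follicle cells was measured in 2 EGFR-activated and 2 control libraries, prepared by oligo-dT pulldown and ScriptSeq v2 per the labels' protocols. TopHat2 2.0.10, HTSeq 0.6.1 and DESeq2 1.2.10 with build BDGP5 were used per the submitters' processing notes; whether counting used strand is not given there. The authors' deposited table gives, per the file headers, a mean normalised count over all libraries (a signal, counts scaled by size factors), the standard error and Wald score beside each log2 fold change, and p-values before and after adjustment. A second deposited table adds log2 fold changes and adjusted p-values from Cuffdiff. Whether fold changes were shrunken is not stated, but the DESeq2 version the authors named shrank them by default, which understates those of low genes. The standard errors point to shrunken values. None exceeded 0.557 over the 12650 genes with a p-value, with means down to 0.171. The intervals and recomputed p-values here rest on these estimates. Columns of other samples numbered 0.

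Left out were 5 rows without a gene, which held 41.2% (alignments not unique), 4.94% (no feature) and 0.896% (ambiguous) of the summed means, and 0 in the others. Mean counts summed to 21565892 over genes; depth per library is unknown here. Of 15682 genes, 12650 had a p-value; an adjusted one was given for 9409. The test was the 2-sided Wald test of DESeq2 as run by the authors; edgeR, planned for counts per library, was not used. Intervals (95%) are the fold change plus or minus the normal quantile times the standard error. With no values per library, p-values rest on the authors' dispersion estimate.

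Alternatives recomputed Wald p-values with Benjamini-Hochberg adjustment in Python 3.11.15 (scipy 1.17.1), tested on simulated data. Exonic lengths came from BDGP6 by symbol and synonym, for 99.2% of the 7887 genes whose mean reached 50 and for 36 of 37 members; the length trend was a lowess (span 0.3, statsmodels 0.14.6). Exon overlaps and head-to-head neighbours were also read from BDGP6; no positions are printed, since the builds differ. Members, lists and alternatives were chosen with earlier results of these data known. Named outside the list are Egfr, E2f, E2f2, Dp, Rbf, Dref, CycE, dap, vas and tj. Also named are up to 4 genes per other list that passed the threshold, had a mean of 50 or more and had the smallest adjusted p. The genes chif, hd, Nup160, su(r), Cad74A, Tm1, Msp-300 and me31B were named after their values were seen. So were the repair genes beyond the smallest 4 and neighbours of members. Promoter sequences were not analysed here.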

Additional observations from a re-analysis of the deposited data

How the results depend on the processing

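As deposited, 29 members were higher and 0 lower. The count higher was 23 at an adjusted p under 0.01, 32 at 0.1 and 28 with no filter on low values. It was 28 at a mean of at least 50, 29 centred on all genes and 21 of 34 after removal of the length trend. None of these settings had a lower member. Of all tested genes, 18.0% were higher as deposited, 11.7% at 0.01, 21.8% at 0.1 and 12.4% with no filter. The share higher was 21.3% at a mean of at least 50, 17.7% centred on all genes and 11.4% with length corrected for. Shares lower lay between 12.2% and 20.3%. The median of the members lay between 0.74 and 0.95 on those scales. Centred on the ribosomal protein genes it was 0.0139, with 1 member higher and 5 lower. On that scale 9 called members turned negative without passing: Mcm10 (−0.34), Cdc6 (−0.11), DNApol-alpha180 (−0.24), DNApol-alpha50 (−0.0352), DNApol-epsilon (−0.28), RPA2 (−0.21), Top2 (−0.38), DNA-ligI (−0.0832) and Fen1 (−0.016). Also there, of 27 regulators of S phase entry 0 were higher and 15 lower, and of 25 fork partners 0 and 11. Of 14 nucleotide genes 2 were higher and 5 lower, of 30 repair genes 0 and 18, and of 28 mitotic genes 0 and 3. Among all 9409 genes 1.01% were higher and 56.8% lower, so the counts of lower regulators and repair genes are near that share. The shift is the 0.93 subtracted from every gene. Mitotic genes higher numbered 8 at an adjusted p under 0.01, and at 0.1 there was 1 lower mitotic gene and 1 lower regulator. After removal of the length trend 0 fork partners were lower. No paired analysis was possible because the tables used here carry no values per library, and for the same reason no library could be left out. A planned search for motifs in promoters was not run. The members' standard errors, with a median of 0.25, limit what can be seen, and for the 7 that did not pass the size of the difference is known only to within its 95% interval.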

Other observations

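Of 30 measured repair and checkpoint genes, 4 rose and 7 fell, with a median log2 fold change of 0.27, in the authors' deposited table; among all genes with an adjusted p 18.0% rose and 17.5% fell, so these shares are near the background. The checkpoint kinase gene grp, the fly Chk1, rose by 1.01 ± 0.20 (adjusted p = 6.26e-06), and Xpac of nucleotide excision repair by 0.90 ± 0.26, though with length corrected for Xpac was at 0.42 and no longer passed (adjusted p = 0.229). The largest of the 7 falls was that of nbs, at −1.72 ± 0.19 (adjusted p = 1.70e-17), with Lig4, the end-joining ligase, at −1.22 ± 0.26 (adjusted p = 3.41e-05). The Ku genes Irbp and Ku80 were at −0.82 ± 0.27 and −0.72 ± 0.23, and rad50 at −0.92 ± 0.27 (adjusted p = 0.00854, 0.00798 and 0.00355), and DNApol-iota and p53 fell by 0.70 and 0.65. Other genes of double-strand break repair did not fall: okr and spn-A were at 0.64 and 0.01 without passing, and mre11, whose product binds those of rad50 and nbs, was at 0.47 ± 0.36 without passing. After removal of the length trend nbs, Lig4, Irbp, Ku80 and rad50 were still lower past the threshold. The end-joining polymerase gene mus308 rose by 0.78 ± 0.27 (adjusted p = 0.0155).

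Among 28 measured mitotic genes 15 rose and 0 fell, with a median of 0.74, against 18.0% higher and 17.5% lower among all genes with an adjusted p. With length corrected for, 13 of 27 were higher, against 11.4% of all genes so corrected. In the authors' deposited table borr and ial of the chromosomal passenger complex rose by 1.58 ± 0.34 and 1.38 ± 0.30, the kinetochore gene Nuf2 by 1.36 ± 0.27 and the checkpoint gene Bub3 by 1.28 ± 0.21.

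In the BDGP6 annotation 13 replication genes have a protein-coding gene that starts head to head with them, between an overlap of 200 and a gap of 500 bp. Of 12 such partners with a p-value, 2 rose, 2 fell and 8 did not pass, with a median of 0.19; these shares are near the background of 18.0% higher and 17.5% lower. The partner of Mcm5, Art1, rose by 1.07 (adjusted p = 5.09e-05), and CG14543, the partner of Sld5, by 1.24 (adjusted p = 0.00183). Hip14, beside DNApol-delta, and CG4751, beside RfC38, were at −0.82 and −0.71 in the deposited table (adjusted p = 0.00857 and 0.0307). In 5 of the 37 members over 10% of the exonic bases overlap another gene, and Psf3 shares 34.9% with CG17841 on the other strand, which fell (−0.59, adjusted p = 0.0187) while Psf3 rose.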
